A study of Mus musculus with 32 samples.

Results

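The choroid plexus is the secretory tissue of the brain ventricles, and a strip of it lies along the hippocampus, so a hippocampal dissection can carry more or less of it. The set described here holds 10 genes of that tissue and of the fluid it makes, namely Ttr, Ptgds, Kl, Enpp2, Folr1, Clic6, Aqp1, Prlr, Otx2 and Calml4. They were chosen by gene symbol, with earlier results of these hippocampus arrays known, as a check of the dissection. The platform had 12 probes for 8 of the 10 genes, out of 25697 probes and 16593 gene symbols in all. Prlr, the prolactin receptor, and Enpp2, the secreted enzyme autotaxin, had no probe under those symbols and were left out. Of the 12 probes, 11 were tested in hippocampus, and the second Kl probe was detected on 0 of 16 arrays.

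Female C57BL/6J mice of 23 months received saline for 3 days, or AICAR at 500 mg/kg/day by intraperitoneal injection for 3, 7 or 14 days. AICAR is a nucleoside that cells convert into an activator of the kinase AMPK, and by its title the study asked about cognition and motor coordination. The mice were perfused with saline 33 days later, both hippocampus and gastrocnemius muscle were profiled, and each of the 8 groups holds 4 bead arrays. Saline was injected for 3 days only, so the number of injections cannot be told apart from AICAR at 7 and 14 days, and no source used here says whether the 4 arrays of a group are 4 mice.

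In the ventricles, a single layer of epithelial cells over leaky capillaries makes cerebrospinal fluid by moving ions and water, and it secretes carrier proteins into that fluid. Transthyretin, encoded by Ttr, carries thyroxine and is among the most abundant messenger RNAs of this epithelium, while neurons hold little of it. Prostaglandin D2 synthase, encoded by Ptgds, is also a major protein of the fluid, but it comes from the meninges and oligodendrocytes as well. In a bulk sample, fewer cells of a type and less RNA per cell cannot be told apart.

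The promoters of genes that varied together are shown with those of Calml4 and Ptgds, whose levels differed most from saline at 7 and 14 days. RefSeq windows on build GRCm38.p6, from 250 bases before to 50 bases after each start site, were at hand for 5 of the 8 genes. The capitals mark the motif TAATCC, the core bound by OTX2, read here on the opposite strand. It was found in 1 of 8 windows of the set (4 of them from Otx2), at position -211 from the start site, and in 2320 of 32851 promoters (7.06%). A match describes the letters only, and windows without one say nothing of the factor.
Otx2, chr14:48665060-48665359, minus strand: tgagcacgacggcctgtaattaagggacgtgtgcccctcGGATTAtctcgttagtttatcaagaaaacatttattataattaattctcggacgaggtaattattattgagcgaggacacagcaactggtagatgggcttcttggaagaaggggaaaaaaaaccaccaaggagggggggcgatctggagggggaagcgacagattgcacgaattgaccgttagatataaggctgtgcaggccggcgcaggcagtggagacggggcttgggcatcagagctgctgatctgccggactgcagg
Aqp1, chr6:55336049-55336348, plus strand: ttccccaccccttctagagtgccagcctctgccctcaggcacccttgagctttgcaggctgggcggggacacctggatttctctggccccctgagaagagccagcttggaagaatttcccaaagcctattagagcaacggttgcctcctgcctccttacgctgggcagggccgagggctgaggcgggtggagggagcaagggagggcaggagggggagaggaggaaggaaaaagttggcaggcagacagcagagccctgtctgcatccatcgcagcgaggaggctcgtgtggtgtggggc
Kl, chr5:150952357-150952656, plus strand: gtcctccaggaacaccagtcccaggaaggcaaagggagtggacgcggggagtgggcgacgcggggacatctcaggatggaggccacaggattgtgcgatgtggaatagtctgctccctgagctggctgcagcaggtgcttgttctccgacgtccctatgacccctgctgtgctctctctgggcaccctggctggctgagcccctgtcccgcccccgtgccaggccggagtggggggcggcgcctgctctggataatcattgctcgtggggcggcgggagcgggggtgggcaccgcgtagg
Calml4, chr9:62857854-62858153, plus strand: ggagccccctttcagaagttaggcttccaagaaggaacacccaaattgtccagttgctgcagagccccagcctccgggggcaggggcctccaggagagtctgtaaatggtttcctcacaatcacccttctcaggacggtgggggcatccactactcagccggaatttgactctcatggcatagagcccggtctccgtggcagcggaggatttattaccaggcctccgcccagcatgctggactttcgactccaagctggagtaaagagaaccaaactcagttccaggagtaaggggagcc
Ptgds, chr2:25469700-25469999, minus strand: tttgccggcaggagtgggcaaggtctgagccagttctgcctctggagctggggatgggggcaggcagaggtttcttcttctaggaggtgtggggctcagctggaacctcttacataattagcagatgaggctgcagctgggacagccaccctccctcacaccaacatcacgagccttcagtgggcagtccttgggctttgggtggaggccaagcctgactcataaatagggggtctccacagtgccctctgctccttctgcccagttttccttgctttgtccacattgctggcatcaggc

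Arrays differed widely in Ttr within every group but the 14-day one. Its raw intensity was 2006, 20175, 29380 and 24605 on the 4 saline arrays and 28064, 9549, 3016 and 21204 at 3 days. It was 35126, 39617, 41880 and 4801 at 7 days, and 38166, 41182, 37204 and 28465 at 14 days. The 4 arrays lowest in Ttr were saline replicate 1, 3-day replicates 2 and 3, and 7-day replicate 4, each more than 1 log2 unit below the median of the 16. On them Ttr ranked between 171 and 1026 among the array's probes by signal, while on the other 12 it ranked between 3 and 21.

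After background correction and quantile normalization within the tissue, levels are given on the log2 scale. Ttr stood at 11.17, 14.44, 14.80 and 14.80 in saline, 15.12, 13.08, 12.25 and 14.53 after 3 days, 14.90, 15.08, 14.95 and 11.86 after 7 days, and 14.85, 15.12, 15.08 and 14.85 after 14 days. Equal values arise because quantile normalization gives probes of the same rank the same level, and at such ranks little room is left above. The 3-day and 7-day arrays overlapped saline. All 4 arrays at 14 days lay above the saline arrays, although the lowest of them, at 14.85, was close to the saline maximum of 14.80. Without background correction this separation was kept (14.85 against 14.80). It was absent in raw intensity (28465 against 29380), under median scaling (14.79 against 14.82) and in the authors' series values (4.92 against 5.19).

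Kl encodes klotho, a hormone and co-receptor shed into blood and fluid. It stood at 7.25, 8.91, 9.55 and 9.34 in saline, 10.07, 7.54, 7.32 and 9.14 after 3 days, 9.07, 10.001, 9.29 and 7.26 after 7 days, and 9.37, 10.14, 9.89 and 9.15 after 14 days. The same 4 arrays that were low in Ttr held its 4 lowest levels.

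Folr1, the folate receptor through which the plexus passes folate to the fluid, followed the same arrays. It stood at 5.27, 7.90, 8.64 and 8.79 in saline, 9.10, 5.68, 6.20 and 8.53 after 3 days, 7.94, 8.91, 7.77 and 5.42 after 7 days, and 8.27, 9.21, 8.77 and 7.72 after 14 days. Clic6, a chloride channel family member, stood at 7.39, 10.65, 11.33 and 11.21 in saline, 11.65, 8.59, 7.62 and 11.04 after 3 days, 10.74, 11.46, 10.63 and 7.62 after 7 days, and 10.81, 11.70, 11.17 and 10.72 after 14 days. Both genes overlapped between all groups.

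Aqp1 encodes the water channel of the plexus surface. Its brightest probe stood at 5.32, 9.04, 10.05 and 9.99 in saline, 10.38, 6.46, 5.55 and 9.49 after 3 days, 9.01, 10.01, 9.39 and 5.23 after 7 days, and 9.30, 10.26, 9.86 and 8.49 after 14 days. The range over the 16 arrays was 5.16 log2 units, and 3.71 and 2.89 for its other probes. It was not detected on saline replicate 1, 3-day replicate 3 and 7-day replicate 4, so the low end of that range is set by the background.

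Otx2, the homeobox factor that the plexus needs to form, stood at 4.72, 7.81, 8.58 and 8.29 in saline, 8.96, 6.15, 5.56 and 8.23 after 3 days, 7.997, 8.48, 7.84 and 5.29 after 7 days, and 8.06, 8.86, 8.62 and 7.88 after 14 days. It too was undetected on those 3 arrays, and its groups overlapped.

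Calml4 and Ptgds did not follow the 4 low arrays as closely. Calml4, a calmodulin-like light chain, stood at 5.31, 5.71, 6.52 and 5.50 in saline, 7.06, 5.69, 5.11 and 6.11 after 3 days, 7.23, 7.83, 7.39 and 5.95 after 7 days, and 7.38, 8.11, 7.62 and 7.07 after 14 days. All 14-day arrays lay above all saline arrays, and 1 array at 7 days fell within the saline range. It was detected on 2 of 4 saline arrays and on 4 of 4 at 7 and 14 days, so its saline level is close to background. Ptgds stood at 10.66, 11.10, 11.47 and 10.06 in saline, 11.66, 9.55, 11.82 and 11.40 after 3 days, 12.57, 12.44, 12.22 and 12.13 after 7 days, and 12.55, 11.40, 12.57 and 13.02 after 14 days. All 7-day arrays lay above saline, whereas 1 array at 14 days fell just within the saline range.

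**Figure D1:**
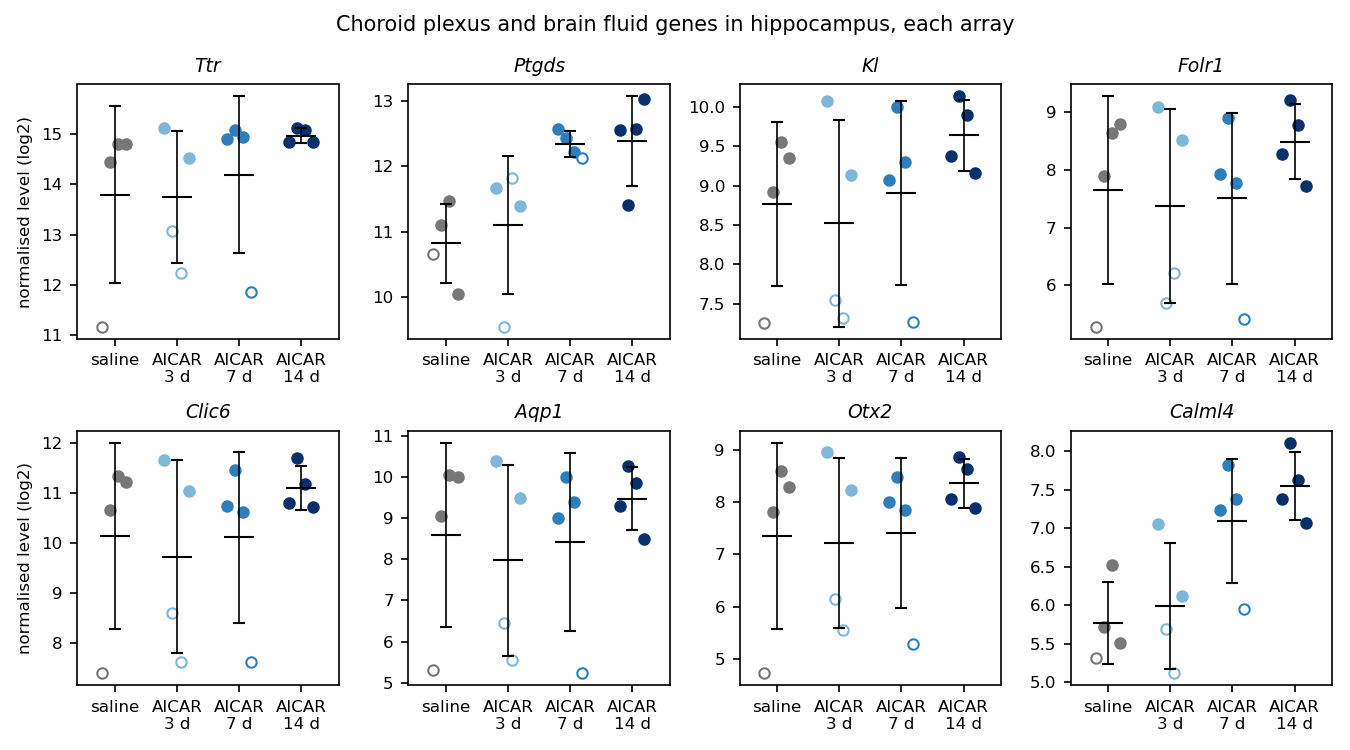
Normalised level (log2) of the brightest probe of each of the 8 genes on each hippocampus array, by group, with mean and SD of 4 arrays as bars. Open circles are the 4 arrays lowest in Ttr, which also hold the 4 lowest levels of Kl, Folr1, Clic6, Aqp1 and Otx2, while Ptgds at 7 days keeps all arrays above saline.

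These levels also gave the differences from saline, which are descriptions, with no test, because the same arrays chose the genes. At 3 days the differences ran between -0.63 for Aqp1 and 0.28 for Ptgds, with a median of -0.19 over the 8 genes, against -0.0037 over all 9534 genes. No gene of the set had an adjusted p below 0.05, nor did any gene tested (0%), while 533 of the 9534 genes and 0 of the 8 had an unadjusted p below 0.05.

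At 7 days the median over the set was 0.10, against -0.05 over all genes. Ptgds was higher by 1.52 ± 0.44 (SE, n = 4) and Calml4 by 1.34 ± 0.42, and these 2 passed the threshold used for all genes, which 27.6% of genes passed. The other 6 differed by between -0.19 and 0.40. Ptgds was the 1 gene of the set without overlap between AICAR and saline, and 12.7% of all genes lay higher without overlap.

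At 14 days every gene of the set was higher on average, with differences between 0.84 for Folr1 and 1.79 ± 0.42 for Calml4 (SE, n = 4) and a median of 0.98, against -0.06 over all genes. Ptgds was higher by 1.56 ± 0.44, and it and Calml4 again passed the threshold, as did 30.1% of all genes. Ttr was higher by 1.17 ± 0.84, Otx2 by 1.004 ± 0.883, Clic6 by 0.953 ± 0.995, Kl by 0.87 ± 0.65 and Aqp1 by 0.87 ± 1.23. Ttr and Calml4 had no overlap with saline under the normalization used here, as did 13.1% of genes lying higher. Nothing is read from these counts. Without background correction Calml4 was higher by 0.79 at 14 days, Aqp1 by 0.46, Folr1 by 0.43 and Otx2 by 0.50.

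Between durations, Calml4 was higher at 14 than at 3 days by 1.56 ± 0.42 and Ptgds by 1.28 ± 0.44 (SE, n = 4), past the threshold that 27.3% of genes passed. From 7 against 3 days 0 of the 8 genes passed it (26.5% of genes), with Ptgds at 1.23 and Calml4 at 1.11. Between 14 and 7 days 0 of the 8 passed, as did 0% of genes, and the differences lay between 0.04 for Ptgds and 1.07 for Aqp1.

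**Figure D2:**
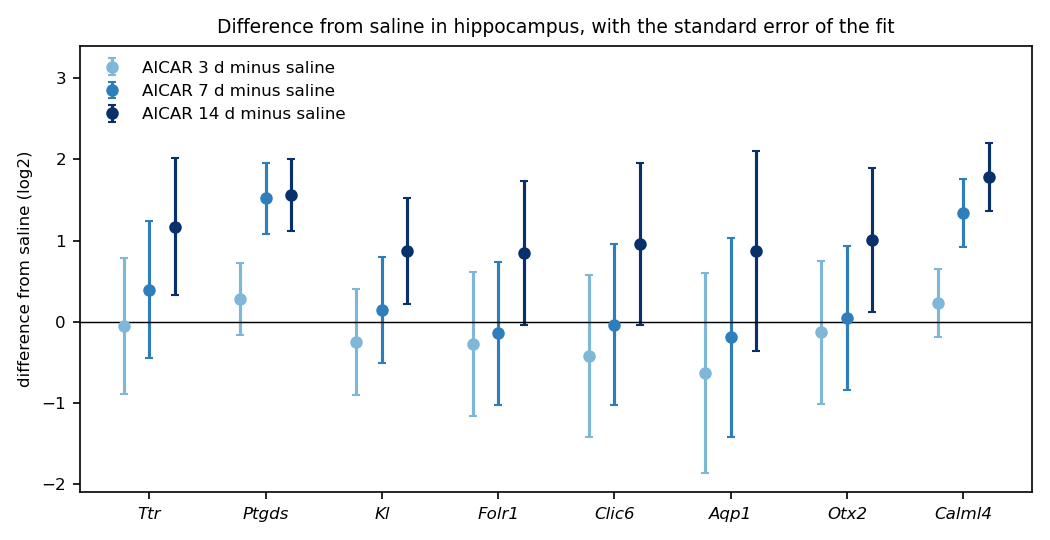
Difference from saline (log2) of the 8 genes in hippocampus at 3, 7 and 14 days of AICAR, with the standard error of the fit as bars. Calml4 and Ptgds stand apart from 0 at 7 and 14 days, and the other 6 genes have standard errors between 0.65 and 1.23.

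Single arrays moved the medians over the set. With 1 array left out at a time, the 3-day median lay between -0.97 (without saline replicate 1) and 0.23 (without 3-day replicate 3), the 7-day median between -0.66 (without saline replicate 1) and 0.83 (without 7-day replicate 4), and the 14-day median between 0.21 (without saline replicate 1) and 1.39 (without saline replicate 3). The 3-day and 7-day medians thus changed sign. Leaving out the 4 arrays lowest in Ttr, a choice made after seeing the data, removes saline replicate 1 alone from the 14-day comparison, and that single array took its median to 0.21, against 0.98 with it. Ttr then differed by 0.29, Clic6 by 0.03, Folr1 by 0.05 and Aqp1 by -0.22. Calml4 and Ptgds were higher by 1.64 and 1.51 without it. With the Ttr level as a covariate, the median of the other 7 genes was -0.21 at 14 days, and Calml4 and Ptgds were higher by 1.33 and 1.46. Ptgds passed the threshold at neither duration without saline replicate 4 (differences of 1.26 and 1.31 at 7 and 14 days). Calml4 at 7 days missed it without any of 7-day replicates 1, 2 and 3 or saline replicates 1, 2 and 4, with differences of 1.09 or more.

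The arrays of saline and 3 days also differ from those of 7 and 14 days in background signal, the median of undetected probes. The signal averaged 122.4 ± 3.17 on saline arrays and 117.6 ± 2.65 on 3-day arrays, while 7-day arrays had 158.7 ± 4.41 and 14-day arrays 150 ± 3.15 (SD, n = 4). The array sets, saline with 3 days and 7 with 14 days, are taken from this signal, as the labels name no chip or batch. Each treatment holds its own run of 8 label numbers and lies wholly within a single set. Array set and treatment thus cannot be told apart for any difference at 7 or 14 days from saline or 3 days. Within each array set of hippocampus 0% of genes passed the threshold, and across the sets between 26.5% and 30.1% did. Each gene named below with an adjusted p at 7 or 14 days shares this limit, in muscle too, where the background averaged 129.0 ± 5.30 on saline and 119.0 ± 3.72 on 3-day arrays, while 7-day arrays averaged 164.1 ± 4.71 and 14-day arrays 147.4 ± 5.49 (SD, n = 4).

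The spread within groups was large for most of the set. The SD within groups had a median of 0.16 over 9534 genes, while it was 1.98 for Aqp1, 1.604 for Clic6, 1.43 for Folr1, 1.42 for Otx2, 1.35 for Ttr, 1.047 for Kl, 0.71 for Ptgds and 0.67 for Calml4. Aqp1 ranked 2 among all genes by this SD, Clic6 4, Folr1 8, Otx2 9, Ttr 11, Kl 21, Ptgds 52 and Calml4 59. Of the 20 genes with the largest spread, 5 belonged to the set and 7 to a list of other choroid plexus genes. The set holds 8 and that list 24 of the 9534 genes tested, and both were written with earlier results known. Prl, in neither, ranked 1 with an SD of 2.18. Its Pearson r with Ttr over the 16 arrays, on deviations from group means, was 0.186.

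**Figure D3:**
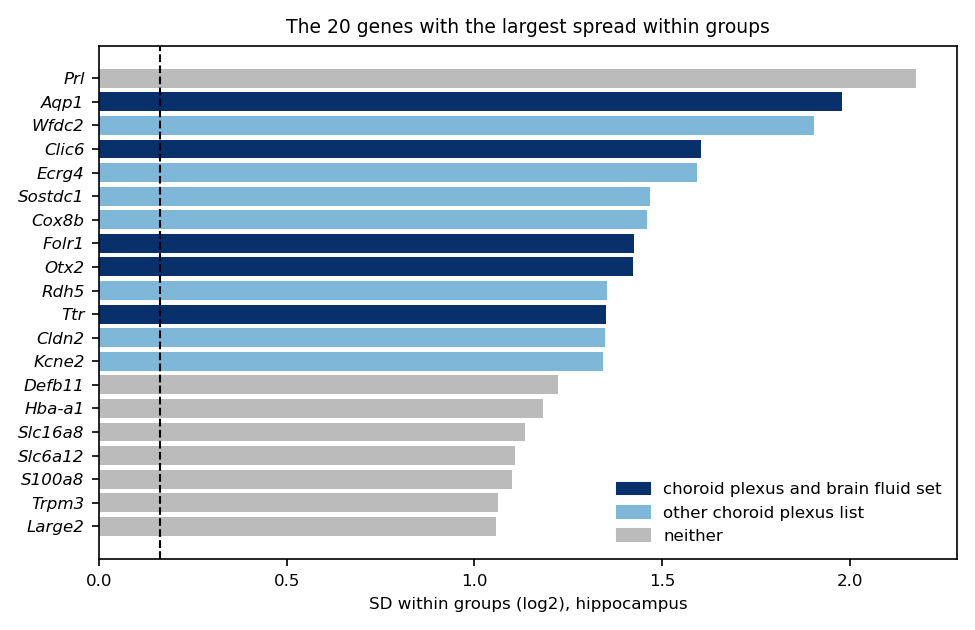
Standard deviation within groups (log2) of the 20 most variable genes in hippocampus, as bars from 0, coloured by list. The dashed line is the median of all 9534 genes at 0.16, and 12 of the 20 bars belong to choroid plexus genes.

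The levels of most of the set moved together from array to array. Pearson's r with Ttr, on deviations from group means, was computed within each array set and carries no p, because these arrays chose the genes. Over the 8 arrays of saline and 3 days it was between 0.948 and 0.990 for Folr1, Clic6, Kl, Otx2 and Aqp1, with Spearman's rho between 0.898 and 0.958. It was 0.735 for Calml4 (rho 0.874) and 0.180 for Ptgds (rho 0.180). Over the 8 arrays of 7 and 14 days those 5 genes lay between 0.906 and 0.970 (rho between 0.826 and 0.970), Calml4 at 0.882 (rho 0.922) and Ptgds at 0.126 (rho -0.08).

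Without the 2 arrays farthest in Ttr the 5 genes had an r between 0.967 and 0.988 in the first set. In the second set, where 7-day replicate 4 alone is low, it was between 0.565 and 0.818. Calml4 then had 0.657 and 0.536, and Ptgds had 0.795 and -0.17. The deviations were still those from group means that included the left-out arrays. In both sets these r values therefore still carry the left-out arrays, and no loss or gain of tracking is read from them. All genes of an array share its RNA and its background signal, so these points are not independent measurements.

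**Figure D4:**
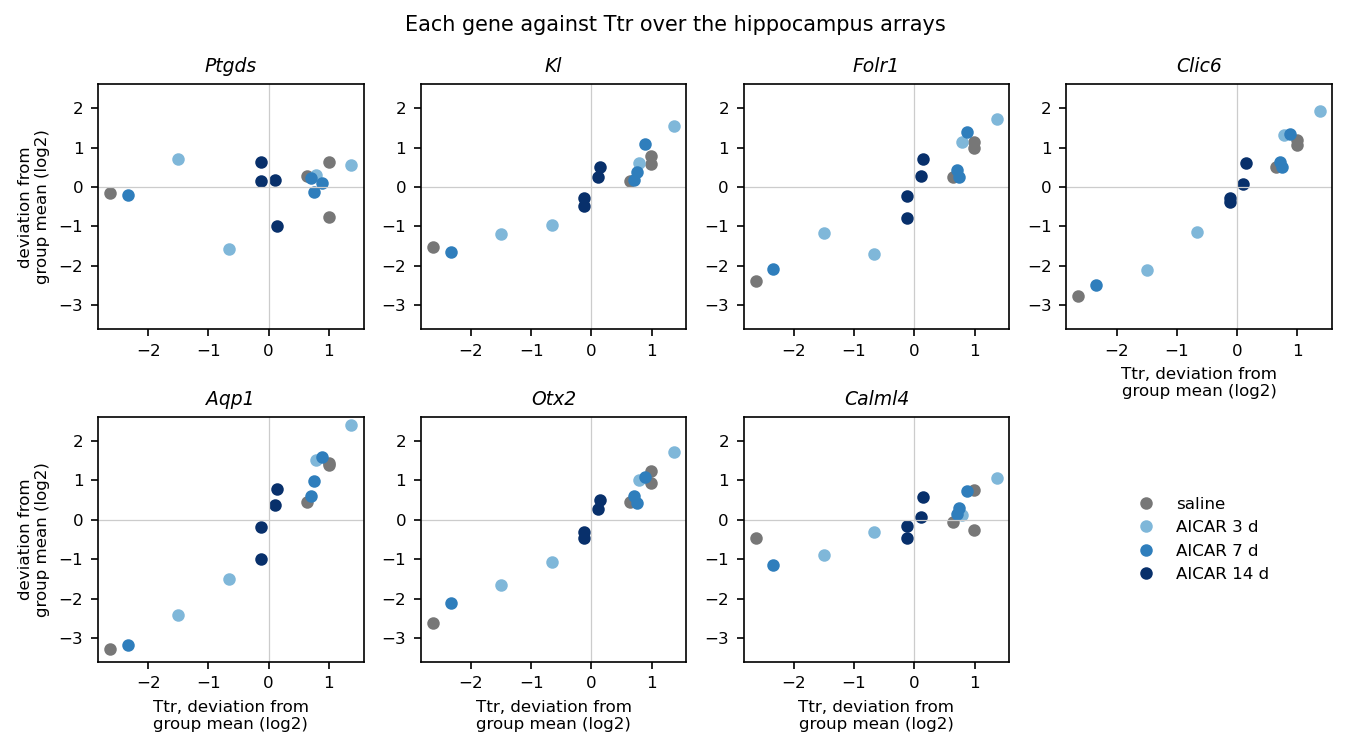
Deviation from the group mean (log2) of 7 genes, vertical, against that of Ttr, horizontal, with 1 point per hippocampus array coloured by group. Kl, Folr1, Clic6, Aqp1 and Otx2 lie near a rising line, Calml4 on a flatter one and Ptgds on none.

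Genes outside the set with the pattern most like Ttr were ranked by r over the 16 arrays on deviations from group means, as a description. Wfdc2, a secreted protease inhibitor, was closest at 0.993, followed by Sostdc1, Ecrg4, Rdh5, Cldn2, Tgfbi, Kcne2, Trpm3, Cox8b, Ooep, Rbm47 and Pcolce2 at 0.930. Cldn2 is the claudin of the leaky plexus junctions and Kcne2 a potassium channel subunit of its surface. The 5 most negative were Twnk at -0.94, Ubqln4, Ydjc, Tubb2b and Pgam2 at -0.87.

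Other choroid plexus genes, a list of 36 of which 31 had a probe and 24 were tested, had a median r with Ttr of 0.883. An r above 0.8 was reached by 17 of the 24, against 142 of all 9533 genes, whose median was -0.07. Ependyma genes, of the ciliated ventricle lining, had a median of 0.8004 over 8 genes, oligodendrocyte genes 0.453 over 9, meningeal fibroblast genes 0.279 over 12, and hippocampal neuron genes -0.21 over 7. The lists share arrays and were written with earlier results known.

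Summed over the 24 genes, the linear level of the other choroid plexus genes spread less than that of the 8 genes of the set in saline and at 7 days. A linear sum is weighted to the brightest genes and does not measure the 8 evenly. Here these are Ttr (group means between 13.74 and 14.97, log2) and then Ptgds (between 10.82 and 12.39). The sum of the set lay between 4385 and 36532 in saline, 9029 and 45610 after 3 days, 8730 and 46063 after 7 days, and 39275 and 45852 after 14 days. That of the other list lay between 5281 and 19806 in saline, 5084 and 24196 after 3 days, 7679 and 22211 after 7 days, and 16701 and 22417 after 14 days. Of that list, 11 genes were detected on all arrays and 5 on none, namely Atp11a, Col9a3, Perp, Spint2 and Tmem72. Of the hippocampal neuron genes 7 of 9 were detected on all hippocampus arrays, Grin2a and Neurod6 on none. The sum of the 7 lay between 18804 and 22368 over all groups. On muscle arrays 3 of the 9 were detected on all and 5 on none. No other brain region was profiled, so these genes do not check the dissection.

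**Figure D5:**
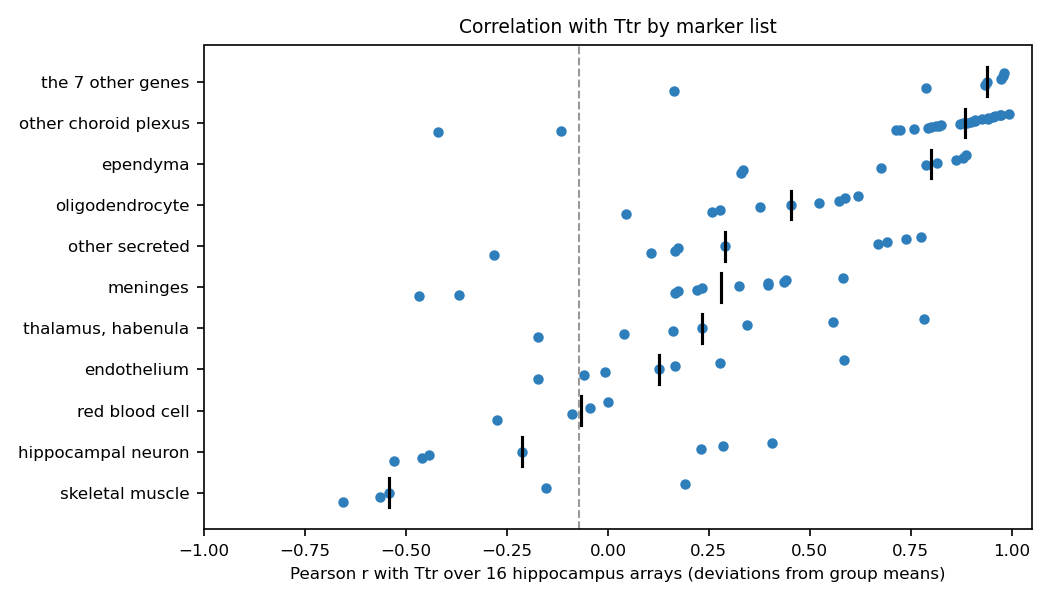
Pearson r with Ttr over the 16 hippocampus arrays for each gene of each marker list, with a black bar at the list's median and a dashed line at the median of all genes, -0.07. The 7 other genes of the set and the other choroid plexus genes have medians of 0.938 and 0.883.

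Among those 24 choroid plexus genes, 0 passed the threshold higher than saline at any duration in limma with the normalization used here. At 14 days against saline, 3 of them had an unadjusted p below 0.05 in either direction. Slco1a5, an organic anion transporter, fell by 0.66 ± 0.11 at 7 days (SE, n = 4, limma adjusted p = 5e-04) and by 0.42 ± 0.11 at 14 days (adjusted p = 0.0074), and it was not among the genes that follow Ttr (r -0.42). The 14-day call was lost under median scaling (adjusted p = 0.106) and with the authors' series values (0.0531). The list's median difference was -0.18 at 3 days, 0.06 at 7 days and 0.47 at 14 days. At 14 days Lbp, a lipopolysaccharide binding protein, stood 1.33 ± 0.51 above saline (limma adjusted p = 0.0626), Kcne2 1.78 ± 0.83 (0.122) and Cab39l 0.45 ± 0.31 (0.297). Lbp and Kcne2 were called higher at 14 days without background correction (limma adjusted p = 0.0234 and 0.0359) and with the authors' series values (0.0261 and 0.0377), and Lbp also under median scaling (0.0286). In the 14-day comparison with saline 1 of 24 was called, against 30.1% of all genes. Between durations, 1 of the 24 was called higher at 14 than at 3 days (11.7% of all genes). At 7 against 3 days 1 was called lower (14.7%), and between 14 and 7 days 0 were called (0%).

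Of 9 other secreted proteins of the brain fluid, 5 rose and 1 fell at 14 days in limma, against 12.6% and 17.5% of all genes (of the called genes 41.9% were higher, and 84.9% under median scaling). The lipid carrier Apoe was higher by 0.67 ± 0.10 (SE, n = 4, limma adjusted p = 2e-04), the protease inhibitor Cst3 by 0.31 ± 0.08 (0.0076) and B2m, the light chain of MHC class I, by 0.52 ± 0.14 (0.0137). The growth factor binding protein Igfbp4 fell by 0.29 ± 0.08 (0.0101). Under median scaling Cst3 (limma adjusted p = 0.132) and Igfbp4 (0.403) were not called, and Cst3 was not called with the authors' series values (0.570). At 7 days 3 of the 9 rose and 1 fell, against 12.2% and 15.4% of all genes. The 7-day counts were 5 and 0 under median scaling, 5 and 1 without background correction, and 2 and 1 with the authors' series values. The 14-day counts were 4 and 0, 5 and 1, and 3 and 1 under the same alternatives. These genes had a median r with Ttr of 0.290.

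Markers of other tissue gave, at 14 days, 2 calls higher of 9 for oligodendrocytes, 2 of 7 for hippocampal neurons, 1 higher and 1 lower of 8 for ependyma, 1 higher of 7 for endothelium and 0 of 12 for meninges (0 also at an unadjusted p below 0.05). There were 0 calls of 7 for thalamus and habenula, 0 of 4 for red blood cells and 1 lower of 5 for skeletal muscle genes. These calls are across array sets. Opalin of myelin was higher by 0.81 ± 0.13 (SE, n = 4, limma adjusted p = 5e-04), and the ciliary factor Foxj1 fell by 0.74 ± 0.18 (0.0058). The ependymal lipid carrier Pltp was higher by 0.63 ± 0.19 (0.0193). Foxj1 went against its list, of which 7 of 8 genes were higher on average, with a median of 0.21. The oligodendrocyte median was 0.02, with 7 of 9 higher on average. Without background correction Foxj1 fell by 0.25, and Opalin and Pltp were higher by 0.72 and 0.52. The part of tissue composition in the results of the set was not tested.

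In muscle, which did not choose the genes, 2 of the 8 could be tested. Ttr, Ptgds, Folr1 and Otx2 were detected on 0 of 16 muscle arrays and Clic6 and Kl on 1. Aqp1, present in the capillaries of muscle, stood at 12.83, 12.77, 12.81 and 12.77 in saline, 12.88, 12.77, 12.71 and 12.89 after 3 days, 12.99, 12.87, 13.06 and 12.86 after 7 days, and 13.01, 13.11, 12.97 and 12.90 after 14 days. Its SD within groups, 0.08, ranked 8593 among 9030 genes.

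Aqp1 in muscle differed from saline by 0.15 ± 0.08 at 7 days (SE, n = 4, limma adjusted p = 0.173) and by 0.20 ± 0.08 at 14 days (adjusted p = 0.0740), and so did not pass the threshold. Under median scaling these differences were -0.05 and -0.02. Both groups lay above saline without overlap, as did 10.9% and 11% of genes, but the other 2 Aqp1 probes differed by -0.06 and -0.07 at 7 days and by -0.05 and -0.18 at 14 days. Calml4, detected on 14 of 16 muscle arrays, differed by 0.27 ± 0.20 at 3 days, -0.10 ± 0.20 at 7 days and 0.18 ± 0.20 at 14 days (limma adjusted p = 0.656, 0.771 and 0.568). Of the 2 genes, 0 were called at any duration (Aqp1 at 14 days had an unadjusted p of 0.0172), against 0%, 18.8% and 17.9% of muscle genes at 3, 7 and 14 days.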

How the data were processed

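RNA of 16 hippocampus and 16 gastrocnemius samples was measured on Illumina MouseRef-8 bead arrays. The deposited table holds the raw intensity of each probe, neither normalized nor background corrected, with a detection p-value that the authors deposited beside it. The deposited series values are a score, the log2 intensity centred and scaled per array, found by comparing the files. The submitters' processing notes name BeadStudio 1.6.0; no genome build is stated in the sources used here.

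Intensities were background corrected (limma 3.58.1 in R 4.3.3, normexp with offset 16), quantile normalized within tissue and put on log2. A probe entered the tests where 4 or more of the 16 arrays of its tissue detected it below p 0.05 (13659 probes in hippocampus, 12977 in muscle) with 1 mean per group, and p adjusted by Benjamini and Hochberg, called below 0.05. The brightest probe stands for a gene. The genes and lists were chosen with earlier results of these data known. Up to 4 genes of smallest p at 14 days are named from the other choroid plexus and secreted lists. Of the markers of other tissue, Opalin, Foxj1 and Pltp are named with their change, and other called genes go unnamed. The 12 genes most and 5 least like Ttr are named too. On simulated data the 14-day comparison found 60% of the changes of 1.5-fold and 95% of those of 2-fold (hippocampus, 5 false calls). The changed probes were drawn from all those tested, with independent noise at each probe's own SD. The median SD over genes was 0.16, against values between 0.67 and 1.98 in the set, so these rates do not hold for the set. Replicate numbers did not pair the arrays: 4 of 24 same-number pairs in hippocampus correlated above 0.1. The number of arrays limits the precision. Alternatives were other background correction, scaling, filters, variance models, array weights, a replicate block, a Ttr covariate and leaving out arrays.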

Additional observations from a re-analysis of the deposited data

Results flagged for a closer look

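2 groups of Ttr levels in hippocampus held 1 array far from the other 3. At 7 days replicate 4 stood at 11.86, with the others between 14.90 and 15.08. In saline replicate 1 stood at 11.17, with the others between 14.44 and 14.80. Each gap exceeded Dixon's critical share of the range of its group. Of 40 groups examined these 2 were flagged, and chance flags about 1 in 20 groups.

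2 genes of the set differed between the 14-day and the 3-day AICAR arrays of hippocampus. Calml4 was 1.56 higher (log2) at 14 days and Ptgds 1.28 higher. Both passed the threshold used for all genes, as did 27.3% of genes, and these arrays also chose the genes, so nothing is read from the calls.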

How the results depend on the processing

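For the 8 genes in hippocampus, each difference was divided by its SD within groups under the same alternative. The result moved by less than 1 for 453 of 465 single values. A gene of large spread can shift far and still be counted so. Clic6 at 14 days did, from 0.95 to 0.03 without the arrays lowest in Ttr. No called difference changed sign under the alternatives run. When only probes detected on all arrays were kept, 1 of 4 genes of the set was called at 7 and at 14 days. That filter drops Calml4, and 3542 and 3852 of 10456 probes were called in all. Leaving out each replicate in turn gave between 0 and 2 calls at 7 days and between 1 and 2 at 14 days. Probes called in all then numbered between 3001 and 3250 at 7 days, and between 3178 and 3545 at 14 days. Calml4 at 14 days was called in all 8 such fits, and at 7 days in 2 of 8. With Ttr as covariate the 14-day median was -0.21. Other choroid plexus genes called at 14 days numbered 3 without background correction, 2 with the authors' series values, 2 with array weights, 3 with the Ttr covariate, 3 with only the 2 groups compared, and 3 without the arrays lowest in Ttr, and between 1 and 2 with single replicates left out. At 7 days they numbered 2 with the Ttr covariate and 2 without the low arrays. All probes called at 14 days numbered 4173 without background correction and 3690 with the authors' series values, of 13659. With the Ttr covariate all probes called numbered 3864 at 7 and 3714 at 14 days, and without the low arrays 3037 and 3830. A replicate block was not part of the design, as the numbers did not pair the arrays. With it 2 genes of the set were called at 7 and at 14 days, and 3391 and 3747 probes in all, against 3705 and 4040 without it. Median scaling called 2179 probes at 14 days, and moved the median of all hippocampal genes to 0.17 and 0.05 at 7 and 14 days, against -0.05 and -0.06. Genes higher made up 91.9% and 84.9% of the calls under it and 53.7% and 50.2% with the authors' values (14-day counts 1320 higher and 1312 lower), against 44.1% and 41.9% in the reported fit; the listed genes named with a change kept their sign.

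In muscle, probes called numbered 4802 and 5298 at 7 and 14 days under median scaling (19.8% and 17.9% of called genes higher) and 4043 and 3784 with the authors' values (36.3% and 38.2%), against 2557 and 2442 (54.7% and 58.1%). Of the 2 genes of the set tested, 1 was called at 14 days without background correction, with the authors' series values and with trended variance. With the authors' series values 1 was also called at 7 days. Without background correction 2755 of 12977 probes were called at 14 days. Aqp1 in muscle changed sign under median scaling, to -0.104, -0.0518 and -0.0151 at 3, 7 and 14 days. Without single replicates it lay between -0.0071 and 0.0516 at 3 days, and Calml4 lay between -0.177 and 0.0452 at 7 days. The cause was not tested. Dim probes, such as Calml4 in saline, limit how exactly a fold can be given, and compression near background understates it.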

Other observations

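Ptgds, which did not follow Ttr, ran beside genes of the meninges. Its r with the 12 meningeal fibroblast genes tested had a median of 0.797 over the 16 hippocampus arrays, on deviations from group means. The closest of all 9533 genes was Slc6a13, a transporter of the meninges, at 0.951. Vitronectin, Vtn, of the secreted list, stood at 0.938. Oligodendrocyte genes had a median r of -0.40 with Ptgds, and Mbp the highest among them at -0.10. Slc6a13 itself differed from saline by 0.40 ± 0.61 at 7 days and 0.21 ± 0.61 at 14 days (SE, n = 4, limma adjusted p = 0.667 and 0.821), and Vtn by 0.50 ± 0.27 and 0.57 ± 0.27 (0.181 and 0.130). Slc6a13 and Vtn were named after their values were seen, and these correlations are descriptions with no test.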
